A study of Mus musculus with 15 samples.

Results

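The interferon-inducible GTPases described here are 10 mouse genes, *Gbp2*, *Gbp3*, *Gbp5*, *Gbp6*, *Gbp7* and *Gbp9* of the guanylate-binding protein (GBP) family and *Irgm1*, *Irgm2*, *Igtp* and *Iigp1* of the immunity-related GTPase (IRG) family. They were chosen by name out of the 20089 genes listed in full in the expression table, and all 10 were found there and passed the filter on low values. Expression was measured by RNA-seq in bone marrow-derived macrophages (BMDMs) of wild-type C57BL/6 mice, all of which had been cultured with M-CSF for 3 days according to the labels. The 15 samples formed 5 groups of 3. One group was left unstimulated (control), and the others were given RANKL (receptor activator of NF-κB ligand, the cytokine that drives osteoclast formation) at 100 ng/mL for 4 h or for 72 h, or LPS (lipopolysaccharide, a bacterial cell wall component) at 100 ng/mL for 4 h or for 72 h. The labels give no age for the mice and do not say whether the 3 samples of a group came from separate animals, so p-values measure the spread between these samples, which may be technical. There was 1 control group for both times, so time under stimulus and time in culture cannot be told apart at 72 h. The study set RANKL against LPS to separate osteoclast differentiation from inflammatory activation.

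GBPs are large GTPases of the dynamin superfamily that bind as polymers to the vacuoles of intracellular pathogens and to bacteria freed into the cytosol, and they help caspase-4 (also known as caspase-11) and the inflammasomes to respond to these. IRGs are smaller GTPases of the same defence. *Iigp1* encodes an effector that is loaded onto vacuole membranes, whereas *Irgm1*, *Irgm2* and *Igtp* (also known as *Irgm3*) encode regulators that sit on the cell's own membranes and keep the effectors inactive there. Both families are known in macrophages as targets of interferon gamma, which acts at gamma-activated sites (GAS) in promoters, and of type I interferon, which acts at interferon-stimulated response elements (ISRE).

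By GENCODE M21 (GRCm38), *Gbp5*, *Gbp7*, *Gbp3* and *Gbp2* lie in this order on the plus strand of chromosome 3, from 142493978 at the start of *Gbp5* to 142638008 at the end of *Gbp2*. *Gbp9* (chr5:105077630-105139539) and *Gbp6* (chr5:105270702-105293698) lie on the minus strand of chromosome 5. *Irgm1* (chr11:48861968-48871683, minus strand), *Igtp* (chr11:58199556-58207591, plus strand) and *Irgm2* (chr11:58199618-58222782, plus strand) are on chromosome 11, where the spans of *Igtp* and *Irgm2* overlap on the same strand. RefSeq promoter windows (GRCm38.p6, 250 bases before to 50 bases after a transcript start) were at hand for 7 of the 10 genes, with 8 windows in all, and those of the others were not used here. An ISRE, searched on both strands as GAAA, any 2 bases and GAAA, was found in all 7 genes and in 7 of the 8 windows, against 3.44% of 32851 windows of the whole table. A GAS, searched as TTCNNNGAA, which reads alike on both strands, was found in *Gbp5*, *Gbp7*, *Igtp* and *Irgm2*, against 8.30% of all windows. A κB motif, searched on both strands as GGGA, any base and TTTCC, was found in *Gbp5* alone among the 7, against 0.411% of all windows. These are matches of letters and not measured binding. The stretches below begin 180 bases before the RefSeq start and are shown for *Gbp5*, which has all 3 motifs, for *Gbp2* and *Irgm1*, which have an ISRE without a GAS, and for *Igtp* and *Irgm2*, which have both next to each other. Capitals mark matches to the ISRE, GAS and κB motifs, which nowhere overlap a motif of another kind, and the pair of ISRE matches in *Irgm1* overlap each other.
Gbp5, chr3:142496754-142496899, plus strand: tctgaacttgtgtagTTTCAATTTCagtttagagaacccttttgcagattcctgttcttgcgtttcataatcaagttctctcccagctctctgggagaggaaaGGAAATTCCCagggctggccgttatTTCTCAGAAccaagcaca
Gbp2, chr3:142620483-142620613, plus strand: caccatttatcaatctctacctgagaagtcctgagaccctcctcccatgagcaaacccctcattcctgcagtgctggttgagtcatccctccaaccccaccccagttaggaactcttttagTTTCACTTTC
Irgm1, chr11:48871421-48871600, minus strand: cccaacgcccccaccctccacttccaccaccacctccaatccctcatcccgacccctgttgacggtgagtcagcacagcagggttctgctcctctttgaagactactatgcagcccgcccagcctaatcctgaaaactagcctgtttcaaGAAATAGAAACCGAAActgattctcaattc
Igtp, chr11:58199376-58199555, plus strand: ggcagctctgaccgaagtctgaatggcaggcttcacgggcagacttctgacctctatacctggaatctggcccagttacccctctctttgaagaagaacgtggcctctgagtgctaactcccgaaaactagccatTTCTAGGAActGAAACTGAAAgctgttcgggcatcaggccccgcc
Irgm2, chr11:58214797-58214976, plus strand: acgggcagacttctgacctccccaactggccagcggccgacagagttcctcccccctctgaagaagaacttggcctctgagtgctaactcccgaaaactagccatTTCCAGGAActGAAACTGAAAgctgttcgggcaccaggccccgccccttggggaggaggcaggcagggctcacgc

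In *Gbp5* the ISRE began 165, the κB motif 77 and the nearer GAS 52 bases before the RefSeq start, and a further GAS at 245 bases lies outside the printed stretch. The ISRE began 59 bases before the start in *Gbp2*, 34 in *Igtp* and 64 in *Irgm2*, and the *Irgm1* matches began 30 and 24 bases before it. In GENCODE the last 12 bases of the *Gbp2* stretch already belong to an annotated UTR, the *Gbp5* stretch lies within the span of the gene, the *Irgm1* stretch lies in an exon of a noncoding *Irgm1* transcript, and the *Irgm2* stretch lies in an intron of the longest *Irgm2* transcript. The *Igtp* and *Irgm2* windows share an identical run of 61 bases. An ISRE together with a GAS was found in 4 of the 7 genes, against 0.454% of all windows.

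The samples held 18306184 to 20330207 fragments on listed genes. The 8 macrophage markers (among them *Cd68*, *Adgre1*, *Csf1r* and *Lyz2*) were above 0 in every group, with summed levels of 6046 to 17491 FPKM (fragments scaled by transcript length and library size), and 9 of 10 osteoclast markers (among them *Ctsk*, *Acp5* and *Dcstamp*) rose at RANKL 72 h against 20.2% of all tested genes. The cultures also held RNA of other cells. The 6 neutrophil markers summed to between 5452 and 19906 FPKM in the control and 4 h samples and to between 144 and 5970 FPKM at 72 h, and the 5 B cell markers to between 0.497 and 20.9 FPKM over all samples. LPS 72 h replicate 3 stood apart within its group. In it 10 stromal markers summed to 436 FPKM and 12 T and NK cell markers to 84.8 FPKM, against at most 78.2 and 32.4 FPKM in the other LPS 72 h samples. Results on LPS 72 h against control are therefore given with and without LPS 72 h replicate 3 for the members, and the counts of the gene lists likewise. The RANKL 72 h samples also differed, with stromal sums of 1731, 798 and 375 FPKM and neutrophil sums of 5970, 2933 and 1515 FPKM in replicates 1, 2 and 3.

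The 10 GTPases, of which *Iigp1* lies on the plus strand of chromosome 18, were expressed in every sample. The fewest fragments behind a value were 121, for *Gbp5* in RANKL 4 h replicate 3, and the most were 41109, for *Gbp5* in LPS 4 h replicate 2. Counting error was thus at most 9.09% of a value (1 SD). In all 10 genes the mean was highest at LPS 4 h, and in 9 of 10 it was lowest at RANKL 72 h, with *Gbp7* lowest at RANKL 4 h. The ratio of the highest to the lowest group mean ran from 4.30 for *Gbp9* to 145 for *Gbp5*. In control cells *Irgm1* was the most abundant per length of transcript, at 179, 130 and 86.5 FPKM in replicates 1, 2 and 3, and *Gbp5* was the least abundant by mean, at 31.5, 10.1 and 4.24 FPKM. At LPS 4 h *Gbp5* was instead the most abundant, at 525, 634 and 582 FPKM. *Irgm1* had a mean of 255 FPKM there, and the lowest mean was that of *Gbp9*, at 30.7 FPKM. For 9 of the 10 genes at most 12.8% of the 50-base stretches of the transcript occur in another annotated gene. For *Gbp6* 90.2% do, all of them in the overlapping gene model Gm43302, and 62.3% of its stretches also occur in *Gbp10*. The *Gbp6* values are therefore uncertain as to the gene they come from.

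**Figure D1:**
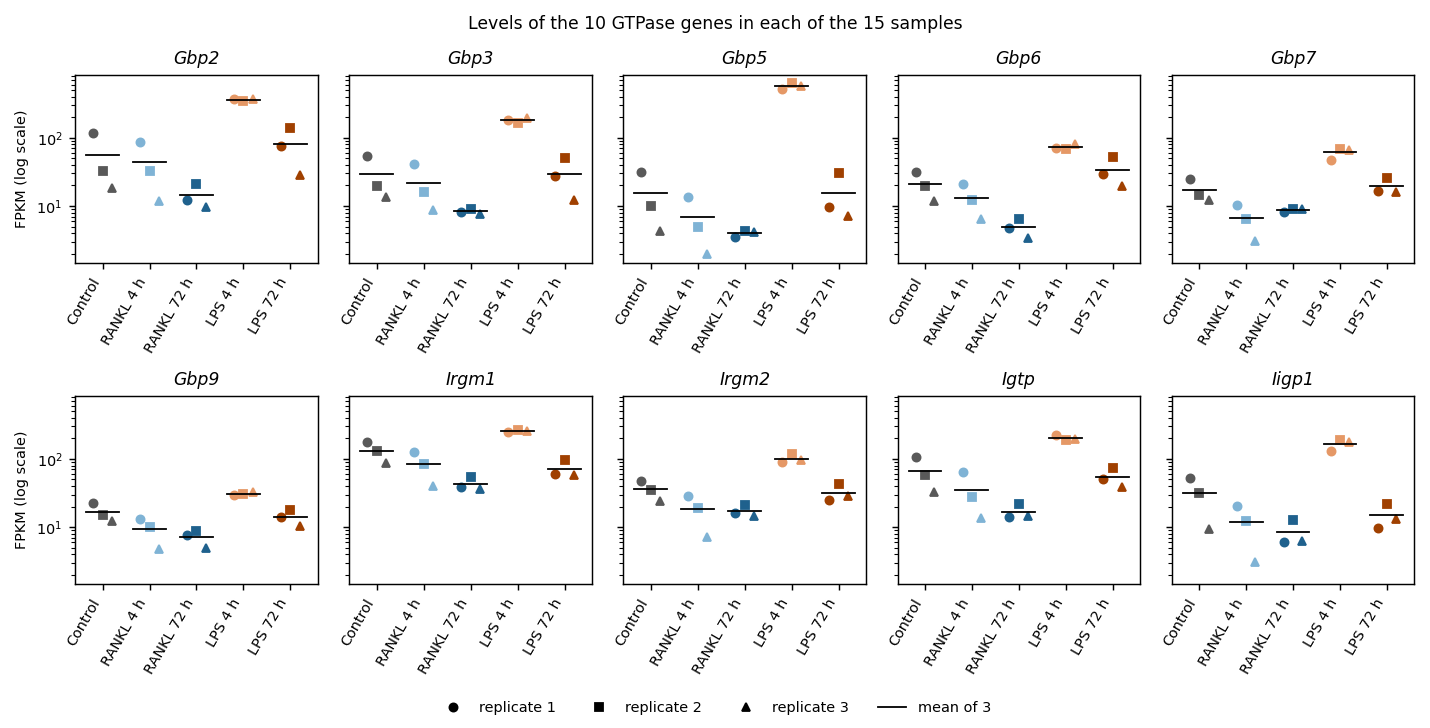
FPKM on a log axis of each of the 10 GTPase genes in the 5 groups, with 1 symbol per replicate and a line at the mean of 3. The LPS 4 h points lie above all others in every panel, and in control and RANKL 4 h replicate 1 is the highest and replicate 3 the lowest sample.

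LPS for 4 h raised all 10 GTPases. Each of them was higher in all 3 LPS 4 h samples than in all 3 controls, each passed the fold change and p thresholds (fold above 1.5, unadjusted p under 0.05), and each had an adjusted p under 0.05 (limma, Benjamini-Hochberg). Over all 11743 tested genes 8.75% rose, 8.43% did so with an adjusted p under 0.05, and 10.6% had LPS 4 h samples all above the controls. The median log2 change of the 10 was 1.89, whereas the median over all tested genes was -0.52. When each sample was centred on its median gene, the median of the 10 was 2.45. All 10 were then past the thresholds, against 17.4% of all tested genes. The centring moved the share of rising genes among all called genes from 17.6% to 55.0%. Changes are on the log2(FPKM + 0.1) scale throughout.

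*Gbp5*, *Gbp2* and *Gbp3*, which all lie on chromosome 3, had the largest fitted rises of the 10. *Gbp5*, a promoter of NLRP3 inflammasome assembly, rose 51.8-fold, a log2 change of 5.70 ± 0.71 (SE, n = 3 per group, adjusted p = 1.8e-05), and ranked 19 among all tested genes by size of rise. *Gbp2*, a coat protein of vacuoles and bacteria, stood at 117, 33.0 and 18.1 FPKM in the controls and at 370, 345 and 373 FPKM after LPS for 4 h. The lowest LPS sample was thus well above the highest control, and the change was 8.79-fold (log2 3.14 ± 0.74, adjusted p = 0.0024). *Gbp3* went from 54.5, 19.6 and 13.6 FPKM to 182, 167 and 192 FPKM, or 7.35-fold (adjusted p = 0.00076). *Gbp7* rose 3.62-fold (adjusted p = 0.00066), and the chromosome 5 genes *Gbp6* and *Gbp9* rose 3.78-fold and 1.91-fold (adjusted p = 0.0021 and 0.029). Differences between the members in the size of their rise were not tested.

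Among the IRGs the effector *Iigp1* rose most. It stood at 52.9, 31.5 and 9.30 FPKM in the controls and at 130, 186 and 177 FPKM at LPS 4 h, a 6.48-fold change (log2 2.70 ± 0.65, adjusted p = 0.0030). The regulators rose by smaller factors. Their control means were 132 FPKM for *Irgm1*, 66.3 FPKM for *Igtp* and 35.6 FPKM for *Irgm2*, beside 31.2 FPKM for *Iigp1*. *Igtp* went from 108, 57.4 and 33.2 FPKM to 226, 189 and 194 FPKM, or 3.42-fold (adjusted p = 0.0060). *Irgm2* rose 2.93-fold (adjusted p = 0.0041). *Irgm1*, known for its role in resistance to mycobacteria, reached 249, 261 and 254 FPKM, or 2.02-fold over control (adjusted p = 0.023). Without control replicate 3 the rises of *Irgm1* and *Gbp9* no longer passed the thresholds, and the other 8 did, against 8.3% of all tested genes.

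After 72 h of LPS the GTPases were back near the control level. None of the 10 was above or below the controls in all samples, where 23.1% and 21% of all tested genes were. None rose past the thresholds, where 14.9% of all tested genes did. Only *Irgm1* passed the thresholds, with a fall of 1.81-fold (log2 -0.86 ± 0.35, unadjusted p = 0.028, adjusted p = 0.071), and 16.1% of all tested genes fell. Its levels were 60.4, 95.1 and 58.6 FPKM, of which the highest lies among the controls. Without LPS 72 h replicate 3 this call was lost and no member passed, while 19.6% of all tested genes rose and 17.1% fell. The median change of the 10 was -0.04, and the 95% intervals of the single genes were wide, from -0.88 to 2.28 for *Gbp2* and from -2.22 to 0.59 for *Iigp1*.

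Set against LPS 4 h, all 10 were lower at LPS 72 h, with no overlap of the groups and with adjusted p between 1.5e-05 and 0.024. Over all tested genes 14.3% were lower, 13.9% with an adjusted p under 0.05, and 16.4% had LPS 72 h samples all below LPS 4 h. Centring on the median gene moved the share of higher genes among all called genes from 75.8% to 40.6%. *Gbp5* stood at 9.61, 30.1 and 7.26 FPKM at 72 h, which is 44.8-fold below LPS 4 h. *Iigp1* was 11.4-fold lower, at 9.68, 22.0 and 13.3 FPKM, and *Gbp2* was 5.42-fold lower, at 74.9, 139 and 28.6 FPKM. *Gbp6* and *Gbp9* differed least, by 2.35-fold and 2.22-fold. Without LPS 72 h replicate 3 the difference remained past the thresholds for 9 of the 10, all but *Gbp6*, against 15.4% of all tested genes.

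**Figure D2:**
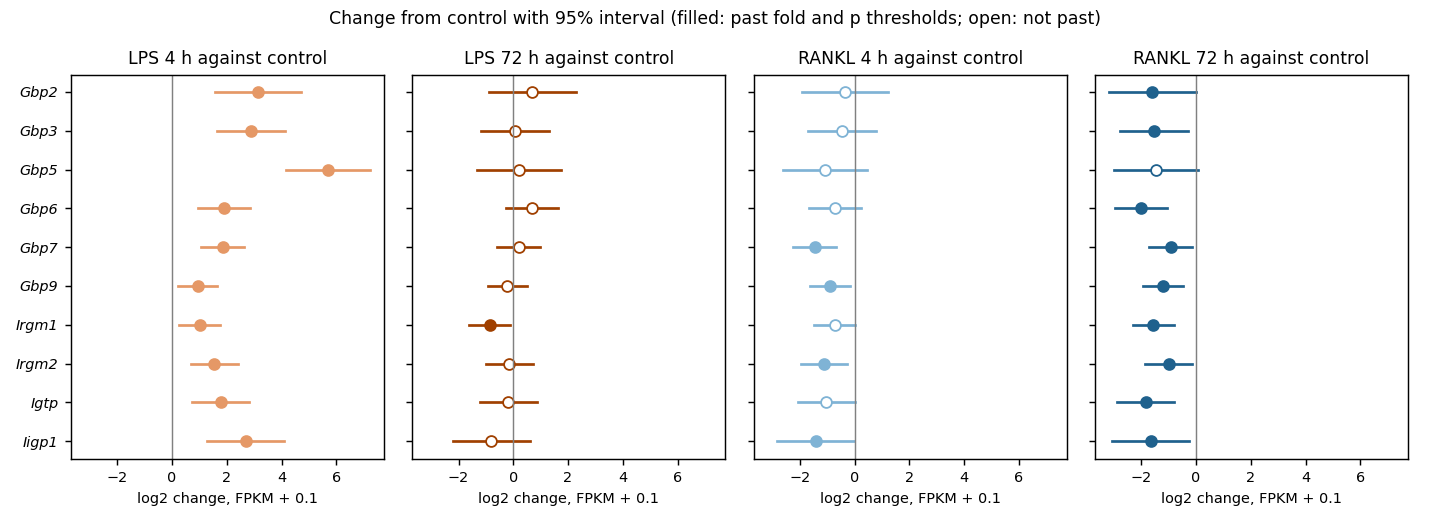
Log2 change from control of each GTPase gene with its 95% interval in the 4 stimulated groups. Filled points are past the fold and p thresholds, and all 10 are so at LPS 4 h, 9 at RANKL 72 h, 4 at RANKL 4 h and 1 at LPS 72 h. In the same directions 8.75%, 9.04%, 1.35% and 16.1% of all tested genes passed.

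At RANKL 4 h no GTPase rose past the thresholds, where 1.21% of all tested genes did, and 4 of the 10 fell. These were *Gbp7*, *Gbp9*, *Irgm2* and *Iigp1*, by 2.76-fold, 1.86-fold, 2.16-fold and 2.69-fold (unadjusted p = 0.0013, 0.019, 0.014 and 0.047), whereas 1.35% of all tested genes fell. None had an adjusted p under 0.05, with which 1 of all tested genes fell (0.00852%), and the lowest of the members was 0.25 for *Gbp7*. *Gbp7* stood at 10.5, 6.45 and 3.07 FPKM after RANKL and at 25.1, 14.6 and 12.4 FPKM in the controls. It was the only member whose RANKL 4 h samples all lay below the controls, and 4.71% of all tested genes were of this kind. The median change of the 10 was -0.96, and that of all tested genes was 0.00.

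Samples of RANKL 4 h and control that carried the same replicate number deviated together, which the fit without a block counts as spread. The difference from the control of the same number was below 0 in all 3 numbers for each of the 10 members. Of all tested genes 22.3% were lower in all 3 numbers. The members varied together, so they are not separate cases. The size of the difference ran from -0.02 for *Gbp2* in number 2 to -1.98 for *Gbp7* in number 3. *Iigp1*, with the largest fall after *Gbp7*, was lower in each number by a like amount, at -1.36, -1.37 and -1.56 in numbers 1, 2 and 3. *Gbp5*, at 13.7, 4.88 and 1.98 FPKM after RANKL, was lower than its control by 1.19, 1.03 and 1.06 on the log2 scale. With the number as a block in the fit of all groups 6 members fell, *Irgm1* and *Igtp* being added, against 1.65% of all tested genes, and the lowest adjusted p was 0.16. With the block in a fit of these 2 groups alone, chosen after seeing the data, 8 members fell against 2.68% of all tested genes. There the adjusted p of the members lay between 0.0053 and 0.15. Without the block, leaving out control replicate 1 or RANKL 4 h replicate 3 left *Gbp7* alone past the thresholds. Of all tested genes 0.911% and 0.571% fell in these fits.

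At RANKL 72 h 9 of the 10 GTPases were lower than in control cells, and 7 were lower in every sample, all but *Gbp2*, *Gbp5* and *Iigp1*. Over all tested genes 9.04% fell, 20.2% rose, and 16.1% had RANKL 72 h samples all below the controls. Centring on the median gene moved the share of rising genes among all called genes from 69.0% to 47.1%. The median log2 change of the 10 was -1.55, beside 0.16 over all tested genes. The adjusted p was under 0.05 for *Gbp6*, *Irgm1*, *Igtp* and *Gbp9*, and with the replicate number as a block for 8 members, all but *Gbp5* and *Gbp7*. Of all tested genes 7.54% fell with such an adjusted p, and 8.45% did so under the block. Under the block all 10 passed the thresholds, against 9.67% of all tested genes. In *Gbp5* the adjusted p was 0.13 without and 0.084 with the block.

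*Gbp6* fell most, from 31.6, 19.9 and 11.7 FPKM to 4.80, 6.35 and 3.41 FPKM, or 4.07-fold (log2 -2.02 ± 0.44, adjusted p = 0.0041). *Igtp* fell 3.57-fold to 14.2, 21.9 and 14.5 FPKM (log2 -1.83 ± 0.48, adjusted p = 0.011). *Irgm1* fell 2.96-fold to 38.9, 54.5 and 36.4 FPKM (log2 -1.56 ± 0.35, adjusted p = 0.0047), which left it the most abundant of the 10 in this group. *Gbp9* fell 2.29-fold (adjusted p = 0.017), and *Gbp7* had the smallest fall, 1.89-fold to 8.17, 8.97 and 8.97 FPKM (adjusted p = 0.070). The size of the fall differed between replicate numbers. The log2 difference in *Gbp2* was -3.24 in number 1 and -0.65 and -0.88 in numbers 2 and 3, and in *Gbp5* it was -3.15, -1.20 and -0.01. Without control replicate 1 the falls of *Gbp6*, *Gbp9*, *Irgm1* and *Igtp* alone remained past the thresholds, against 7.6% of all tested genes.

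**Figure D3:**
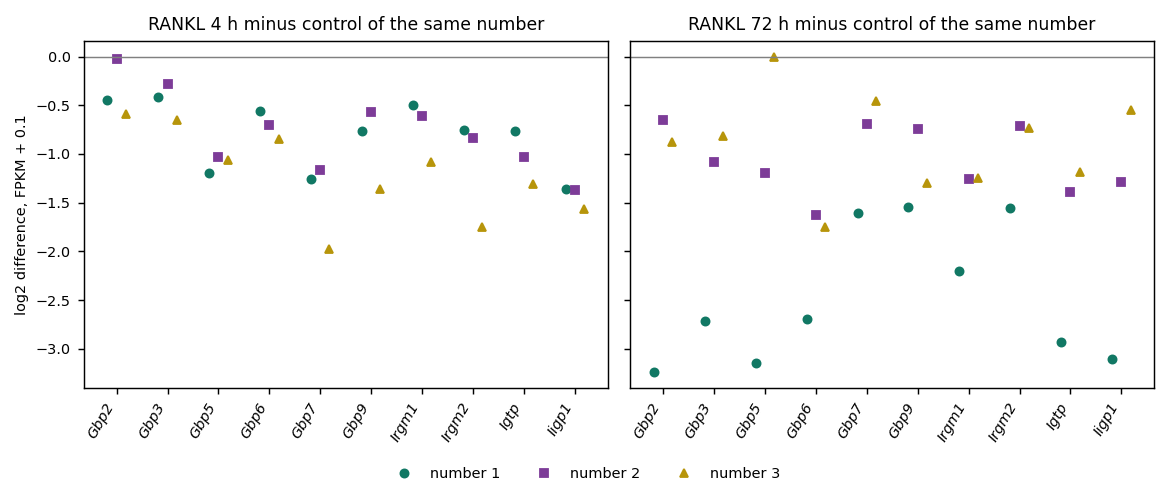
Log2 difference of each GTPase gene between a RANKL sample and the control sample of the same replicate number, at 4 h (left) and 72 h (right). All points lie below 0, and 22.3% of all tested genes were lower in all 3 numbers at 4 h and 22.0% at 72 h. The genes varied together and are not separate cases. At 72 h the points of number 1 lie lowest in every gene.

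Between the times of RANKL, *Gbp6* (2.50-fold, adjusted p = 0.038) and *Irgm1* (1.78-fold, adjusted p = 0.088) were lower at 72 h than at 4 h, and 8.24% of all tested genes were. Centring on the median gene moved the share of higher genes among all called genes from 70.9% to 47.6%. With the replicate number as a block *Gbp2* and *Gbp3* were added, at 2.36-fold and 2.13-fold (adjusted p = 0.097 and 0.086), so that 4 members passed against 8.81% of all tested genes. *Gbp7* and *Irgm2* had changes above 0 that did not pass, 0.55 and 0.11 on the log2 scale. Without RANKL 4 h replicate 1 no member was lower past the thresholds and *Gbp7* was higher, against 7.09% and 17.5% of all tested genes.

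RANKL and LPS were next compared at the same time. These comparisons share no sample with each other, but each shares its samples with the comparisons against control. At 4 h all 10 GTPases were lower under RANKL than under LPS, with no overlap of samples and adjusted p between 3.5e-06 and 0.0011, whereas 9.31% of all tested genes were lower (8.98% with an adjusted p under 0.05) and 11.5% had RANKL samples all below those of LPS. Centring on the median gene moved the share of higher genes among all called genes from 82.0% to 45.6% at 4 h and from 64.6% to 53.1% at 72 h. The difference ran from 3.35-fold for *Irgm1* to 111-fold for *Gbp5*. At 72 h 8 of 10 were lower under RANKL, 6 of them with an adjusted p under 0.05, and 13.8% of all tested genes were lower, 12.8% with such an adjusted p. The samples did not overlap for 9 members, all but *Iigp1*, against 20% of all tested genes. *Gbp6* showed the largest difference at 72 h, 6.54-fold (adjusted p = 0.00024), with 4.80, 6.35 and 3.41 FPKM under RANKL and 29.0, 53.0 and 19.95 FPKM under LPS. *Irgm1* and *Iigp1* did not pass, with 1.63-fold and 1.78-fold lower levels under RANKL (95% intervals of the log2 difference -1.46 to 0.05 and -2.24 to 0.57). Without LPS 72 h replicate 3 the count was 7, with *Irgm2* lost, against 17.7% of all tested genes. Without LPS 72 h replicate 2 it was 4, *Gbp2*, *Gbp6*, *Gbp7* and *Igtp*, against 12.1%. Replicate 2 had the highest level of every member in the LPS 72 h group.

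In the order of group means LPS 4 h stood first for all 10 genes and was set apart from the next group in each by the tests above. *Gbp2*, *Gbp3*, *Gbp5* and *Gbp6* then ran LPS 72 h, control, RANKL 4 h, RANKL 72 h. *Gbp7* had the same order with the RANKL groups exchanged. In *Gbp9*, *Irgm2*, *Igtp* and *Iigp1* control stood above LPS 72 h, and in *Irgm1* LPS 72 h was also below RANKL 4 h. Control and LPS 72 h did not differ beyond their spread in 9 of the 10 genes, control and RANKL 4 h did not in 6, and the RANKL times did not in 8. Of all tested genes 14.9% were called higher and 16.1% lower at LPS 72 h against control. At RANKL 4 h against control it was 1.21% and 1.35%, and at RANKL 72 h against RANKL 4 h 20.1% and 8.24%. With the replicate block the last 2 numbers of members were 4 and 6. The shares of all tested genes were then 1.41% and 1.65%, and 20.9% and 8.81%.

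Outside LPS 4 h, the GTPases varied more between replicates of a group than the median of the tested genes, and they varied together. This was not particular to the 10. Other GTPases of these families summed to 291, 175 and 97.1 FPKM in control replicates 1, 2 and 3 and to 152, 88.4 and 35.9 FPKM in those of RANKL 4 h. Over the 10 genes the median ratio of the highest to the lowest replicate was 2.98 in control, 4.35 at RANKL 4 h, 1.52 at RANKL 72 h and 2.09 at LPS 72 h, whereas over tested genes above 1 FPKM it was between 1.25 and 1.37 in the 5 groups. At LPS 4 h it was 1.18, below the 1.27 of tested genes. In control all 10 genes were highest in replicate 1 and lowest in replicate 3, as were 30.6% and 32.1% of all tested genes. The same held at RANKL 4 h, where the shares of all tested genes were 37.1% and 35.8%. Their summed level was 670, 365 and 226 FPKM in the control replicates and 425, 227 and 101 FPKM in those of RANKL 4 h. At LPS 4 h the sums were 1918, 2070 and 2050 FPKM and the order was gone. At LPS 72 h all 10 were highest in replicate 2 and 8 of 10 lowest in replicate 3, with sums of 316, 549 and 233 FPKM, while 23.0% of all tested genes were highest in replicate 2 and 51.3% lowest in replicate 3.

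Marker levels moved with the replicates as well. The 12 T and NK cell markers, of cells known to make interferon gamma, summed to 45.8, 19.8 and 19.2 FPKM in the control replicates and to 38.2, 18.7 and 12.6 FPKM at RANKL 4 h, and all 12 were above 0 in each of these groups. At LPS 4 h the markers summed to 45.1, 19.2 and 15.4 FPKM, beside GTPase sums of 1918, 2070 and 2050 FPKM. At RANKL 72 h they summed to 42.5, 40.1 and 19.1 FPKM, beside GTPase sums of 120, 169 and 111 FPKM. The T and NK cell markers were highest, at 84.8 FPKM, in LPS 72 h replicate 3, where 8 of the 10 GTPases had the lowest level of their group. The 10 stromal markers summed to 298, 177 and 135 FPKM in control and to 1731, 798 and 375 FPKM at RANKL 72 h, where the GTPases were low in all 3 samples. Macrophage markers summed to 9075, 8873 and 7360 FPKM in control. The part of other cells in the GTPase levels was not tested, and in such bulk samples fewer cells of a type and less RNA per cell cannot be told apart.

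Of 18 other GTPases of these families, 15 were in the table and 14 were tested. At LPS 4 h 6 rose, *Gbp4*, *Gbp10*, *Ifi47*, *Tgtp1*, *Tgtp2* and *Gvin1*, and 3 fell, *Gbp8*, *Irgc1* and *Irgq*, when 8.75% of all tested genes rose and 41% fell. At RANKL 72 h 9 fell, 6 of them also by adjusted p, and 1, *Irgq*, rose, beside 9.04% and 20.2% of all tested genes. At RANKL 4 h 4 fell and none rose, beside 1.35% and 1.21% of all tested genes. None of these 4 passed by adjusted p, and with the replicate block 7 fell, beside 1.65% of all tested genes. At LPS 72 h 1, *Gbp4*, rose and 6 fell, beside 14.9% and 16.1% of all tested genes, and of these only 2 of the falls passed by adjusted p. Without LPS 72 h replicate 3, 4 of the 14 rose (*Gbp4*, *Gbp8*, *Gbp10* and *Irgq*) and 6 fell, beside 19.6% and 17.1% of all tested genes. The median log2 change of the 14 was 0.67 at LPS 4 h, -0.93 at LPS 72 h, -0.78 at RANKL 4 h and -1.12 at RANKL 72 h, beside -0.52, 0.08, 0.00 and 0.16 over all tested genes. *Ifi47* (also known as Irgd) was the most abundant, at 134, 73.4 and 41.4 FPKM in control, 238, 213 and 223 FPKM at LPS 4 h and 20.7, 36.8 and 28.0 FPKM at LPS 72 h. Its controls thus showed the same order of replicates as the 10 members, and it was lower than control at LPS 72 h (log2 -1.41, adjusted p = 0.053, and 0.082 without LPS 72 h replicate 3) and at RANKL 72 h (log2 -1.41, adjusted p = 0.059). *Tgtp1* and *Tgtp2*, a pair of near-identical effectors whose values are uncertain as to the gene, rose 4.70-fold and 4.76-fold at LPS 4 h (adjusted p = 0.017 for both) and fell 4.67-fold and 4.57-fold at RANKL 72 h (adjusted p = 0.033 and 0.037). *Gm5431* and *Gm4951* changed by 0.69 and 0.65 at LPS 4 h on the log2 scale without passing, and both fell at RANKL 4 h, RANKL 72 h and LPS 72 h. *Gbp8* fell at LPS 4 h, from 5.82, 3.31 and 1.81 FPKM to 2.14, 1.61 and 1.34 FPKM (adjusted p = 0.040). It was not called after centring on the median gene.

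Of 27 genes for interferons, their receptors and their signalling, 23 were tested. At LPS 4 h 8 rose and 2 fell, against 8.75% and 41% of all tested genes. At LPS 72 h 2 rose and 2 fell, against 14.9% and 16.1%, and without LPS 72 h replicate 3 it was 3 and 2, against 19.6% and 17.1%. At RANKL 4 h none rose and 1, *Stat2*, fell, against 1.21% and 1.35%, and this fall did not pass by adjusted p. At RANKL 72 h 2 rose and 6 fell, against 20.2% and 9.04%. Their median log2 change was 0.53 at LPS 4 h and -0.29 at RANKL 72 h, beside -0.52 and 0.16 over all tested genes. *Ifnb1*, encoding interferon beta, stood at 3.87, 1.89 and 0.649 FPKM in control and at 50.5, 21.2 and 12.5 FPKM at LPS 4 h (log2 3.72 ± 0.73, adjusted p = 0.00064). It was in the same order in both groups, with replicate 1 highest. It was lower than control at both 72 h times (adjusted p = 0.0043 for RANKL and 0.0010 for LPS), where it had 2, 1 and 1 fragments under RANKL and 1, 0 and 0 under LPS, too few for a fold change, against 64, 31 and 10 fragments in control. *Ifng*, encoding interferon gamma, was at most 0.211 FPKM in the control and RANKL samples and at 5.64, 1.42 and 1.83 FPKM at LPS 4 h (adjusted p = 0.00016), or 140, 37 and 47 fragments against 4, 1 and 2 in control. It was also higher than control past the thresholds at LPS 72 h, and without LPS 72 h replicate 3 its log2 change was 1.80 (adjusted p = 0.057).

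*Irf1*, a transcription factor of the response to interferon gamma, went from 57.4, 35.1 and 25.1 FPKM in control to 359, 312 and 232 FPKM at LPS 4 h (log2 3.00 ± 0.38, adjusted p = 1.9e-05). *Socs1*, a feedback inhibitor of the JAK kinases, changed by 4.30 ± 0.59 at LPS 4 h (adjusted p = 4.2e-05) and by -2.30 ± 0.59 at RANKL 72 h (adjusted p = 0.010). *Stat2* fell at RANKL 72 h, from 125, 116 and 74.2 FPKM to 35.4, 43.6 and 28.3 FPKM (log2 -1.54 ± 0.30, adjusted p = 0.0020), and *Irf8* fell there too (log2 -0.97 ± 0.18, adjusted p = 0.0015). *Irf9* changed by -0.57 at RANKL 72 h, short of the fold threshold. *Ifngr1*, a chain of the receptor for interferon gamma, had changes of the other sign from the GTPases at LPS 4 h and RANKL 72 h. At LPS 4 h 41% of all tested genes fell. Centring on the median gene moved their median there from -0.52 to 0.04, and *Ifngr1* was not called after centring. *Ifngr1* was at 56.5, 63.9 and 64.1 FPKM in control and at 32.1, 33.2 and 26.2 FPKM at LPS 4 h (log2 -1.02 ± 0.16, adjusted p = 0.00013). At RANKL 72 h it was at 117, 128 and 95.5 FPKM (log2 0.88 ± 0.16, adjusted p = 0.0014). *Ifngr2*, the other chain, did not pass in any group.

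Of 27 genes of the inflammasome, autophagy and vacuole defence, 9 rose and 4 fell at LPS 4 h, when 8.75% of all tested genes rose and 41% fell. At LPS 72 h 8 rose and 2 fell (14.9% and 16.1% of all tested genes), and without LPS 72 h replicate 3 it was 12 and 2 (19.6% and 17.1%). At RANKL 4 h 1, *Sqstm1*, rose (1.21% of all tested genes), which did not pass by adjusted p. At RANKL 72 h 4 rose and 6 fell (20.2% and 9.04% of all tested genes). Their median log2 change was -0.06 at LPS 4 h, 0.44 at LPS 72 h and -0.32 at RANKL 72 h, beside -0.52, 0.08 and 0.16 over all tested genes. *Casp4* was at 24.6, 18.5 and 17.1 FPKM in control, at 138, 121 and 129 FPKM at LPS 4 h (log2 2.70 ± 0.26, adjusted p = 1.5e-06) and still at 62.1, 75.0 and 35.0 FPKM at LPS 72 h (log2 1.46 ± 0.26, adjusted p = 0.00071). *Nlrp3*, the inflammasome sensor, likewise rose at LPS 4 h (log2 3.74 ± 0.17) and at LPS 72 h (log2 1.15 ± 0.17), by which time the GTPases did not differ from control beyond their spread apart from *Irgm1*. Both also passed at LPS 72 h without replicate 3 (log2 1.78 and 1.08). *Aim2*, *Gsdmd* and *Gabarapl2* did not pass in any group against control, though *Aim2* did at LPS 72 h without replicate 3 (log2 0.68, adjusted p = 0.0077). *Atg5* fell at LPS 4 h (log2 -0.78 ± 0.11, adjusted p = 3.5e-05), where the median of all tested genes was -0.52. *Atg5* was not called after centring on the median gene. Of 9 genes for the prenylation of proteins, the lipid anchor that some GBPs carry, 5 fell at LPS 4 h and none rose, when 41% of all tested genes fell, and 2, *Fdps* and *Fntb*, rose at RANKL 72 h, when 20.2% of all tested genes rose. Their median log2 changes were -0.71 and 0.24, beside -0.52 and 0.16 over all tested genes. At LPS 72 h 1 of the 9, *Icmt*, rose and 2, *Fdps* and *Fntb*, fell (14.9% and 16.1% of all tested genes). Without LPS 72 h replicate 3 it was 2 and 2 (19.6% and 17.1%).

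**Figure D4:**
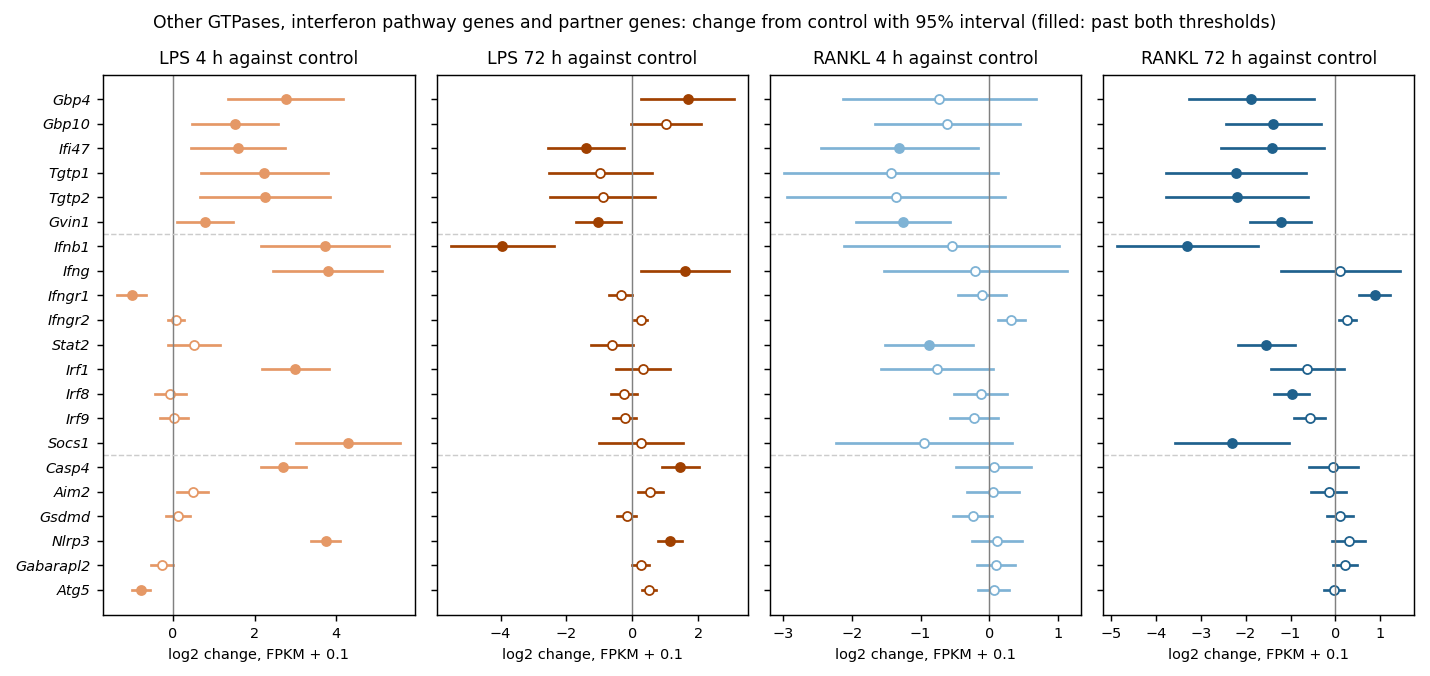
Log2 change from control with its 95% interval of 6 other GTPases (top), 9 interferon pathway genes (middle) and 6 partner genes (bottom), where filled points are past the fold and p thresholds and each panel has its own x axis. The 6 GTPases drawn are those of the 14 tested that rose at LPS 4 h, so their side of 0 there was fixed by the choice. *Gbp8*, *Irgc1* and *Irgq*, which fell there, are not drawn. *Gbp4* to *Gvin1* are filled at LPS 4 h and, on the other side of 0, at RANKL 72 h. *Casp4* and *Nlrp3* are filled at both LPS times and at no RANKL time.

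The levels of the 10 GTPases were closely correlated over the 15 samples. Pearson r of log2(FPKM + 0.1) lay between 0.83 and 0.98 over the 45 pairs of members (median 0.93), and for the deviations from the group means between 0.78 and 0.98 (median 0.92). These are descriptions, since all genes were read from the same libraries. Deviations of 9465 other genes had a median r of -0.04 with the mean of the members. Outside the GTPase families, the genes whose levels were most like the mean of the members over the 15 samples were *Herc6*, *Azi2*, *Ccdc25*, *Socs1*, *Slfn2*, *Rnf31*, *Batf2*, *Ifi205*, *Ifit1* and *Rsad2*, with r from 0.97 to 0.98. For the deviations from the group means, r was 0.98 for *Rsad2* and *Herc6* and 0.88 for *Ccdc25*. Of the 14 other GTPases tested, *Tgtp1* had r = 0.98 with the members, *Ifi47* 0.92 and *Gbp4* 0.91, whereas *Gbp8* had 0.03 and *Irgq* -0.76.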

How the data were processed

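BMDM RNA-seq of 15 samples in 5 groups was analysed, with groups and replicate numbers from the labels. Per the labels and the paper's methods, the authors estimated and deposited FPKM per gene and sample with StringTie and Ballgown, and the labels name GRCm38.p4 and mm10. The aligner, the library strandedness and the software's versions are not given in the sources used here. The last gene listed in full is Tti2, and genes after it in the alphabet were not analysed here. *Gbp11*, *Mx1* and *Mx2* were not analysed here. One listed gene is not reported here.

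FPKM were whole multiples of a step per gene and sample, and from these the fragments were recovered for 14485 of 14485 genes above 0 in 3 or more samples, with 100% of values whole within 0.0001. Values were tested as log2(FPKM + 0.1) in 1 fit of all groups with limma 3.58.1 (lmFit, eBayes with trend, R 4.3.3) over the 11743 genes that averaged 0.1 FPKM or more, in 8 comparisons. The call thresholds followed the study's methods, a fold over 1.5 (or under 0.66) with p under 0.05 before adjustment. Adjusted p-values are Benjamini-Hochberg over all tested genes. The fit was tested on simulated data. Marker and pathway lists, all 10 members and the 10 genes most like their mean are named. The members and lists were chosen with earlier results of these data known.

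Replicate numbers from the labels were checked for pairing by the correlation of deviations from the group means over the 9486 genes that averaged 1 FPKM or more. Every same-numbered pair was over 0.1 for RANKL 4 h, RANKL 72 h and LPS 4 h against control (mean r 0.76, 0.21 and 0.56), for RANKL 4 h against LPS 4 h (0.64) and for RANKL 72 h against RANKL 4 h (0.22), and not for the 3 comparisons with LPS 72 h. Alternatives were other pseudocounts, filters, scalings and fits, limma voom on the recovered fragments, a replicate block and leaving out each sample. Motifs and figures were made with Python 3.11.15, numpy 2.4.6, pandas 2.3.3 and matplotlib 3.10.9.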

Additional observations from a re-analysis of the deposited data

Results flagged for a closer look

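The level under LPS differed between 4 h and 72 h in all 10 GTPases, by a test of the difference itself (limma, Benjamini-Hochberg adjusted p from 1.5e-05 to 0.024). Of all tested genes 13.9% were lower at 72 h with an adjusted p under 0.05. With 1 control group for both times, the response and time in culture cannot be told apart here. The log2 difference of 72 h from 4 h was -5.49 for *Gbp5*, -3.51 for *Iigp1*, -2.81 for *Gbp3*, -2.44 for *Gbp2*, -1.96 for *Igtp*, -1.87 for *Irgm1*, -1.69 for *Irgm2*, -1.66 for *Gbp7*, -1.23 for *Gbp6* and -1.15 for *Gbp9*. All samples of each gene were lower at 72 h than at 4 h. The level under RANKL differed between the times in *Gbp6*, by -1.32 on the log2 scale (adjusted p = 0.038), with 3.41 to 6.35 FPKM at 72 h and 6.46 to 21.4 FPKM at 4 h. This call was lost without RANKL 4 h replicate 1, and *Gbp6* values are uncertain as to the gene they come from. In a fit of the compared groups alone the lowest adjusted p of the members was 0.057. A group of 3 samples is too small for a test of outliers.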

How the results depend on the processing

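Each comparison was repeated with 11 other pseudocounts, filters, scalings, fits and thresholds and by leaving out each of its 6 samples. After seeing the data, the block was also tried in the compared groups alone and with 1 replicate number left out at a time. The gene lists were also counted at LPS 72 h without its replicate 3, likewise chosen after seeing the data. Of 1680 values of single genes obtained in this way, 1504 kept their direction and their side of the thresholds, 87 lost a call, 56 gained one and 33 changed sign. All changes of sign were in RANKL 4 h against control, LPS 72 h against control and RANKL 72 h against RANKL 4 h.

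For RANKL 4 h against control 1 member fell in a fit of the compared groups alone, against 1.22% of all tested genes. With the adjusted p it was 0 (0.00852%), and with the block in those groups alone it was 8 (2.68%). With samples left out 1 to 8 fell, against 0.571% to 2.2% of all tested genes. For RANKL 72 h against control 4 fell with the adjusted p, against 7.54% of all tested genes. With samples left out 4 to 10 fell, against 7.45% to 9.93%. For LPS 72 h against control 0 fell with the adjusted p, against 14.4% of all tested genes. With the block in the compared groups alone 1 rose (13.9%). With samples left out 0 to 3 rose (11.2% to 21.6%) and 0 to 2 fell (14.2% to 18.7%). For RANKL 72 h against LPS 72 h 4 to 9 were lower with samples left out, against 11.3% to 17.7% of all tested genes. For RANKL 72 h against RANKL 4 h 1 was lower in the compared groups alone (8.16% of all tested genes) and 1 with the adjusted p (6.83%). With the block it was 4 in all groups (8.81%) and 4 in these alone (8.9%). With samples left out 0 to 6 were lower (6.58% to 9.04%) and 0 to 1 higher (16.4% to 23.6%).

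Centring on the median gene turned *Gbp3* to -0.016 (LPS 72 h against control) and *Irgm2* to -0.10 (RANKL 72 h against RANKL 4 h). With samples left out, changes that had not passed crossed 0. At RANKL 4 h against control these ran from -1.06 to 0.40 for *Gbp2* and from -1.04 to 0.13 for *Gbp3*. At LPS 72 h against control they ran from -0.57 to 0.64 for *Gbp3*, -0.47 to 1.17 for *Gbp5*, -0.12 to 0.60 for *Gbp7*, -0.45 to 0.024 for *Gbp9*, -0.39 to 0.26 for *Irgm2* and -0.60 to 0.28 for *Igtp*. At RANKL 72 h against RANKL 4 h they ran from -1.06 to 0.44 for *Gbp5*, -0.72 to 0.0058 for *Gbp9*, -0.45 to 0.57 for *Irgm2* and -0.99 to 0.55 for *Iigp1*. Where the cause is not the sample or group left out, it was not tested.

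In the comparisons with LPS 72 h the replicate numbers did not pair the samples. There the block kept the 1 fall of *Irgm1* against control (16.7% of all tested genes fell). It gave 9 instead of 8 members lower under RANKL at 72 h (14.1%), and left all 10 lower at LPS 72 h than at LPS 4 h (14.9%). It left all 10 calls of LPS 4 h against control (9.09% of all tested genes) and of RANKL 4 h against LPS 4 h (9.59%) as they were. Over all tested genes, the number called for RANKL 4 h against control was 301, or 189 with a pseudocount of 1, 14 with the adjusted p and 557 with the block in the compared groups alone. Centring on the median gene took the calls of LPS 4 h against control from 5846 to 3724 and those of RANKL 4 h against LPS 4 h from 6082 to 3792. Groups of 3 limit the precision, and leaving out a sample leaves 2.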

Other observations

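Among the genes whose deviations from the group means ran most closely with those of the GTPases were further genes of the interferon response. The genes of this paragraph were named after their values were seen. The highest r for the deviations was 0.99, for *LOC102639543*, and *Mitd1* had 0.97. *Ifit2* and *Ifit3* had r = 0.97 and 0.96 for the deviations but 0.87 and 0.85 over the 15 samples, and *Cmpk2* had 0.96 and 0.91. The values describe the same libraries and were not tested.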
